A study of Oryza sativa Japonica Group with 9 samples.

Results

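The Aux/IAA family of rice was followed as 31 loci, OsIAA1 to OsIAA31, listed by MSU locus number. Of these, 30 have a row among the 55986 gene models of the deposited expression table. IAA5 (LOC_Os01g48450) has none and was not analysed here. Of the 31 names, 28 are carried by exactly 1 gene on the same chromosome in the RefSeq annotation of assembly ASM3414082v1, and these stand in the same order along each chromosome as the loci. RefSeq there gives no gene the names IAA22, IAA27 or IAA28, so these rest on the locus list alone. The level was tested for 24 members that reached 1 FPKM in at least 3 of the 9 libraries. FPKM counts fragments per gene after scaling to gene length and to the library's total.

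RNA came from developing grain (caryopsis) of the japonica cultivar Nipponbare. The groups were plants edited in GSK5 (genotype GSK5-/-), plants edited in ARF4 (genotype ARF4-/-) and wild type (WT), with 3 libraries each. The sample labels give day 9 after flowering for every library, whereas the series text gives 7 to 8 days. Neither the alleles made, nor the number of edited lines, nor the plants behind each library are given by the labels. The p-values therefore rest on library-to-library spread, which could be purely technical.

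Aux/IAA proteins are short-lived repressors of auxin signalling. They bind auxin response factors (ARFs) at auxin-controlled promoters and recruit TOPLESS-type co-repressors. Auxin acts as a glue between an Aux/IAA protein and a TIR1/AFB F-box receptor, after which the Aux/IAA protein is degraded. Many Aux/IAA genes are themselves induced by auxin, so their transcripts are often read as a sign of auxin response, and auxin is needed for endosperm and embryo growth in cereal grain. GSK5 is a GSK3/SHAGGY-like kinase known to bind ARF4. The design asks which transcripts differ in grain when either partner is edited.

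Facts of the libraries that bear on the family come first. Summed FPKM lay between 585414 and 626390 per library. Absolute depth is unknown, but the steps of low values put the shallowest library at 71% of the deepest. The ARF4 transcript, from LOC_Os01g70270, stood at 54.21, 49.52 and 47.61 FPKM in ARF4-edited libraries and at 91.82, 92.48 and 67.58 in WT. The locus taken as GSK5 (LOC_Os03g62500, a name that the reference table does not hold) stood at 31.1, 33.99 and 31.55 FPKM in GSK5-edited libraries and at 32.07, 39.33 and 47.96 in WT. An edit need not alter the level of its transcript. WT replicate 3 resembled GSK5-edited libraries (mean Pearson r of 0.941 across genes, which are not independent replicates) more than its own group (0.91), and ARF4 replicate 3 did likewise (0.93 with GSK5-edited libraries, 0.901 with its own group). Of 9 listed endosperm genes, 5 to 7 per library reached 1 FPKM. The starch synthase gene Wx lay between 0.22 and 4.16 FPKM over all libraries. The endosperm transcription factor gene NF-YB1 lay between 0 and 0.48 and the listed gene GluA2 between 2.96 and 4.8 FPKM. Of 5 listed endosperm loci whose names the reference table lacks, 3 lay between 4.06 and 96.31 FPKM in every library. The other ones, listed as GluB1 and RPBF, lay at 0 to 0.53 and 0 to 2.58 FPKM. Whether such levels suit either stated age was not tested. The sugar exporter gene SWEET11 made up most of the endosperm sum, at 169.28 to 1515.53 FPKM.

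The family was carried by a few genes. IAA17 (LOC_Os05g14180) and IAA21 (LOC_Os06g22870) averaged 209.8 and 153.9 FPKM over the 9 libraries, the only 2 members above 100. A further 13 members averaged from 10 to under 100 FPKM, 7 from 1 to under 10, and 8 under 1. IAA17 and IAA21 together gave 44.3% to 45.7% of the family's summed FPKM in GSK5-edited libraries and 45.9% to 47.5% in ARF4-edited libraries. In WT this share was 23.6%, 37.4% and 46%. IAA17 stood first in 8 of the 9 libraries. In WT replicate 1 the first place went to IAA18 at 72.02 FPKM, with IAA21 at 52.92 and IAA17 at 52.74.

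**Figure D1:**
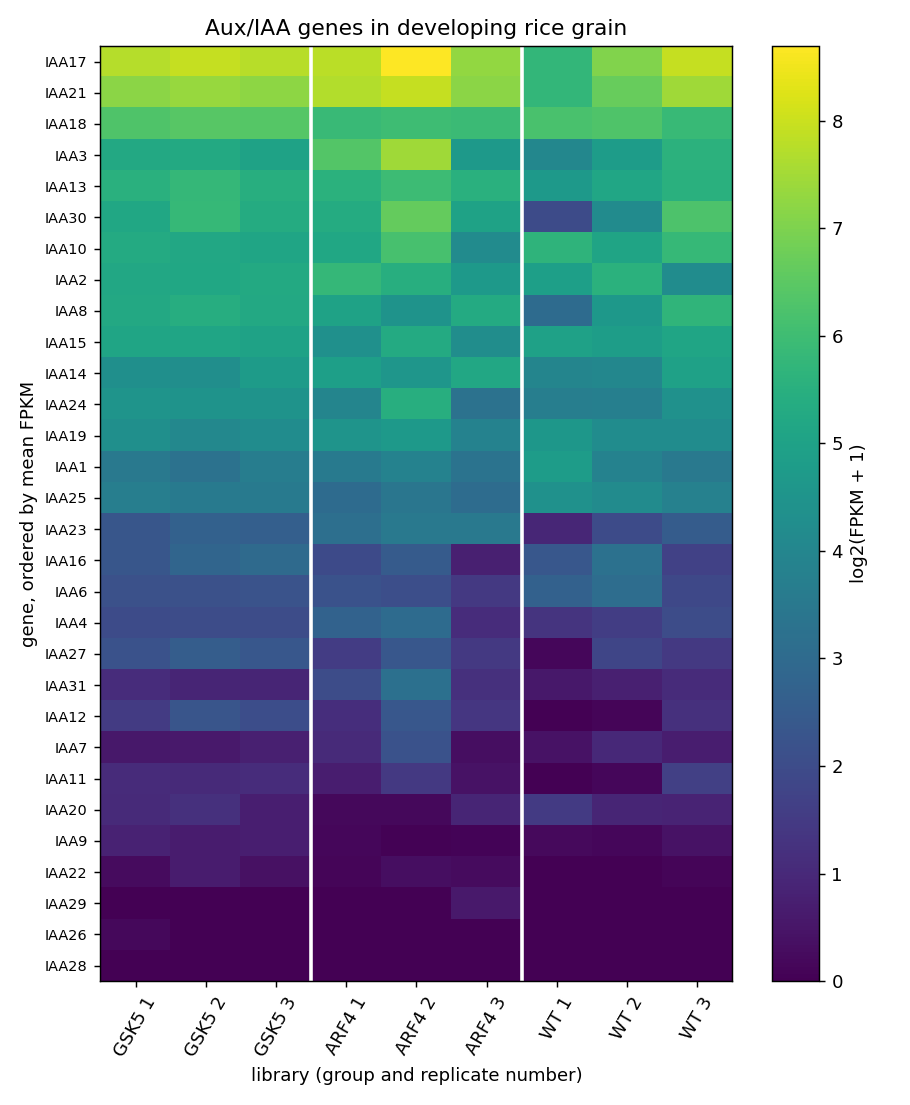
Level of the 30 Aux/IAA loci as log2(FPKM + 1), with genes running down by mean FPKM and libraries running across as GSK5-edited, ARF4-edited and WT, replicates 1 to 3 each. IAA17 and IAA21 form the bright top rows except in WT replicate 1, ARF4 replicate 2 is brighter than its neighbours in many rows, and IAA28 at the bottom is at 0 throughout.

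The summed level of the family differed widely between libraries of a genotype, other than in GSK5-edited grain. It was 801.6, 893.8 and 820.2 FPKM in GSK5-edited libraries, 907.4, 1387 and 656 in ARF4-edited libraries and 448.4, 621 and 914.8 in WT, replicates 1 to 3 each. As means this is 838.5 ± 48.8 in GSK5-edited grain, 983.5 ± 371.4 in ARF4-edited grain and 661.4 ± 235.8 in WT (SD, n = 3 each). The 3 groups overlapped, since WT replicate 3 lay above every GSK5-edited library and ARF4 replicate 3 lay close to WT replicate 2. In bulk tissue, fewer cells of a type and less RNA per cell cannot be told apart. Summed endosperm markers ran from 1426 to 1616 FPKM in GSK5-edited libraries, from 251.3 to 1419 in ARF4-edited libraries and from 353.8 to 1610 in WT. This sum follows SWEET11, with 169.28 FPKM in ARF4 replicate 2, and the mean log2(FPKM + 1) of the 9 endosperm genes was lowest in WT replicates 1 and 2 (2.5 and 2.79), then in ARF4 replicate 2 (2.98). All 4 listed embryo genes were above 0 in every library, with sums of 14.94 to 18.93 FPKM in GSK5-edited, 17.6 to 26.84 in ARF4-edited and 7.47 to 27.95 in WT libraries. Of these, the meristem gene OSH1 was highest in ARF4 replicate 2 (23.09 FPKM) and lowest in WT replicate 1 (3.65), whereas another listed locus had its lowest level, 0.5 FPKM, in ARF4 replicate 2. Summed green pericarp markers ran from 908.5 to 1069 FPKM in GSK5-edited, from 1161 to 2551 in ARF4-edited and from 871 to 1318 in WT libraries, with all 5 genes at 1 FPKM or more throughout. For GSK5 against WT, limma called 1 of 7 tested endosperm loci higher (log2 change 1.66, adjusted p = 0.00169). Of 5 green pericarp loci it called the Rubisco activase gene RCA lower (-0.87, adjusted p = 0.0399). It called 2.15% of all genes there. For ARF4 against WT, where IAA25 was called, it called 1 endosperm locus higher (1.60, adjusted p = 0.00714), which lay at 0 to 0.08 FPKM in WT. It called 1 green pericarp locus lower (-1.84, adjusted p = 0.0386), and 3.32% of all genes. The green pericarp list was mixed, with 2 changes above 0 and 3 below. CAB1R was higher without overlap (3.33, limma adjusted p = 0.0601). For GSK5 against ARF4 limma called 1 endosperm locus higher (1.48, adjusted p = 0.0102), and 0.483% of all genes. Groups did not overlap there for 5 of 7 endosperm loci (71.4%), 3 higher and 2 lower. They did not overlap for 4 of 5 green pericarp loci (80%), 1 higher and 3 lower, against 26.3% of all genes. For GSK5 against WT these shares were 42.9% and 20%, against 30.1%, and for ARF4 against WT 28.6% and 40%, against 23.7%. All 7 endosperm changes for GSK5 against WT were above 0, as were 63.1% of all genes. The nucellus gene MADS29 had its lowest level, 22.48 FPKM, in ARF4 replicate 2 and its highest, 78.6, in WT replicate 3. The part of these tissues in the Aux/IAA levels was not tested.

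**Figure D2:**
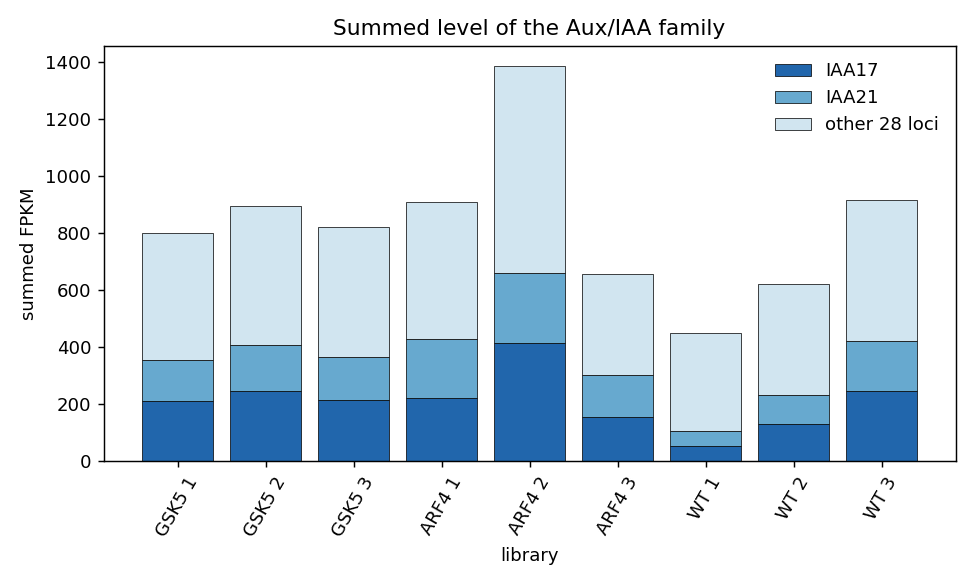
Summed FPKM of the 30 Aux/IAA loci in each library, split into IAA17, IAA21 and the other 28 loci. The tallest bar is ARF4 replicate 2 at 1387 FPKM and the shortest is WT replicate 1 at 448.4 FPKM, where IAA17 and IAA21 are a smaller share.

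Members spread least among GSK5-edited libraries. The median SD of a tested member within a group, on the log2(FPKM + 1) scale, was 0.116 in GSK5-edited grain, 0.509 in ARF4-edited grain and 0.64 in WT, where the medians over all 23385 tested genes were 0.114, 0.241 and 0.272. For 23 of the 24 members the SD was smallest in GSK5-edited grain, as it was for 67.1% of all tested genes. ARF4 replicate 2 held the highest level of the 9 libraries for 13 of 24 members (54.2%), against 25% of all tested genes. WT replicate 1 held the lowest for 12 of 24 (50%), against 34.1% of all tested genes. Within the ARF4-edited group, replicate 2 was highest for 19 members (79.2%, against 52.7% of all tested genes) and replicate 3 lowest for 17 (70.8%, against 47.2%). The median spread of the members was thus above that of all genes in ARF4-edited grain and in WT, which is a description with no test. WT replicate 1 was the deepest library and ARF4 replicate 2 had 85% of its depth.

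**Figure D3:**
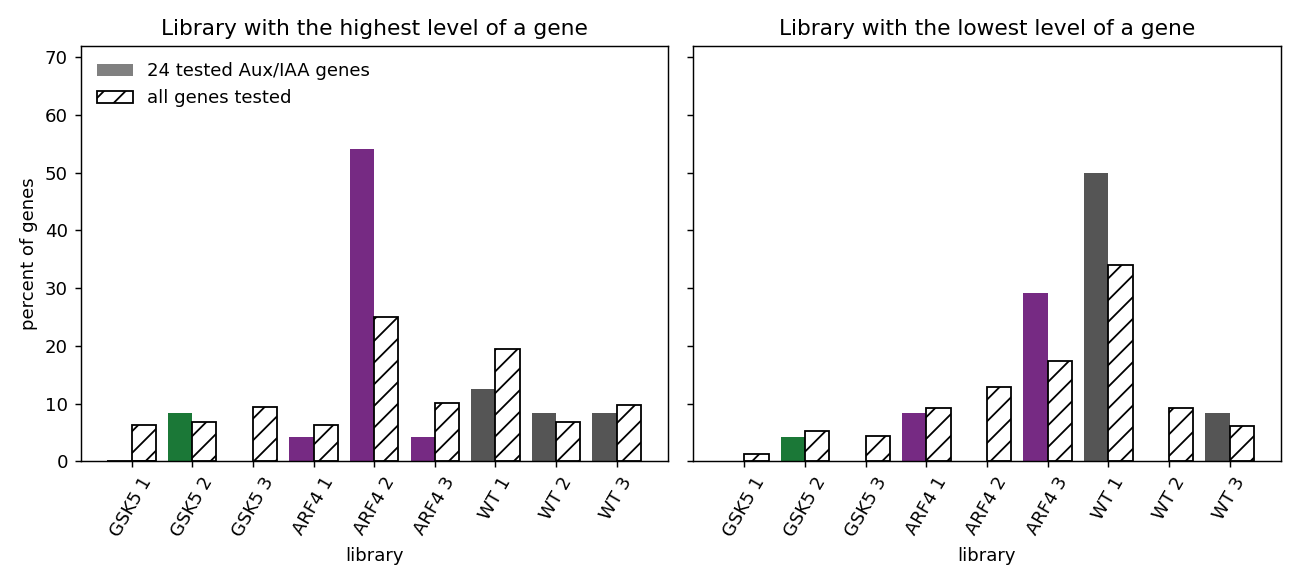
Percent of genes whose highest (left) or lowest (right) level of the 9 libraries fell in each library, for the 24 tested Aux/IAA genes (filled) and for all tested genes (hatched). ARF4 replicate 2 holds 54.2% of the members' highest levels and WT replicate 1 holds 50% of their lowest.

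The most abundant members come first. IAA17 had 210.44, 244.69 and 214.81 FPKM in GSK5-edited libraries, 221.07, 412.95 and 156.1 in ARF4-edited libraries and 52.74, 130.15 and 245.49 in WT. The groups overlapped, because WT replicate 3 lay above all edited libraries but ARF4 replicate 2. The log2 change was 0.90 (SE 0.54) for GSK5 against WT and 1.02 (SE 0.54) for ARF4 against WT, and neither passed (limma adjusted p = 0.388 and 0.272). IAA21 had 144.4, 163.54 and 148.97 FPKM in GSK5-edited libraries, 207.62, 245.2 and 144.79 in ARF4-edited libraries and 52.92, 102.07 and 175.19 in WT. Its order of libraries was near that of IAA17, with WT replicate 3 again among the edited ones. Its log2 changes of 0.62 for GSK5 against WT and 0.98 for ARF4 against WT (SE 0.39 each) did not pass (limma adjusted p = 0.403 and 0.173). Between the 2 genes, the level per length of IAA17 was the higher in 8 of the 9 libraries, all but WT replicate 1. IAA17 averaged 223.3 ± 18.64 and IAA21 152.3 ± 9.996 FPKM in GSK5-edited grain (SD, n = 3). In WT they averaged 142.8 ± 97.0 and 110.1 ± 61.5 FPKM (SD, n = 3). Both genes were measured in the same libraries, so the SD between libraries does not measure the difference between them.

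IAA18 (LOC_Os05g44810), next by mean level, was the steadiest of the abundant members. Its 77.88, 85.57 and 83.6 FPKM in GSK5-edited libraries lay above the 59.05, 63.03 and 60.22 of ARF4-edited libraries and above the 72.02, 77.67 and 56.86 of WT. The gap to WT was small, with the lowest GSK5-edited library just over the highest WT library. Log2 changes were 0.27 for GSK5 against WT and 0.43 for GSK5 against ARF4 (SE 0.13 each), with limma adjusted p = 0.305 and 0.208. The highest over the lowest of the 9 libraries was 1.5 times for IAA18, against 7.83 times for IAA17.

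IAA3 (LOC_Os01g13030) had one of the widest ranges. It stood at 36.82, 37.6 and 31.56 FPKM in GSK5-edited libraries, at 82.08, 172.69 and 24.43 in ARF4-edited libraries and at 15.39, 26.91 and 47.3 in WT. ARF4 replicates 1 and 2 exceeded every other library, but ARF4 replicate 3 lay below all 3 GSK5-edited libraries and inside the WT range. The log2 change of 1.35 for ARF4 against WT (SE 0.65) did not pass (limma adjusted p = 0.236), and without ARF4 replicate 3 it was 2.10 with adjusted p = 0.0476. Without ARF4 replicate 2 it was 0.71 (limma adjusted p = 0.475), and without WT replicate 1 and ARF4 replicate 2 together 0.32 (limma adjusted p = 0.755). IAA13 (LOC_Os03g53150), in which a stabilising mutation reduces lateral roots, had 45.04, 54.24 and 42.6 FPKM in GSK5-edited libraries, 45.88, 60.73 and 44.7 in ARF4-edited libraries and 24.92, 34.44 and 44.64 in WT. Each ARF4-edited library lay above each WT library, though ARF4 replicate 3 only just above WT replicate 3. Its log2 change of 0.55 (SE 0.22) did not pass (limma adjusted p = 0.17).

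On the log2(FPKM + 1) scale the widest range belonged to IAA30 (LOC_Os12g40890), whose level in ARF4 replicate 2 was 32.6 times that in WT replicate 1. It had 35.46, 55.48 and 39.83 FPKM in GSK5-edited libraries, 40.19, 97.6 and 31.17 in ARF4-edited libraries and 2.99, 17.16 and 75.19 in WT. All edited libraries lay above WT replicates 1 and 2, and WT replicate 3 exceeded all of them but ARF4 replicate 2. Log2 changes of 1.31 for GSK5 against WT and 1.52 for ARF4 against WT had an SE of 0.94 and did not pass (limma adjusted p = 0.455 and 0.334). Without WT replicate 1 the log2 change of IAA30 was 0.24 for GSK5 against WT and 0.45 for ARF4 against WT, and that of IAA17 was 0.32 and 0.44.

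**Figure D4:**
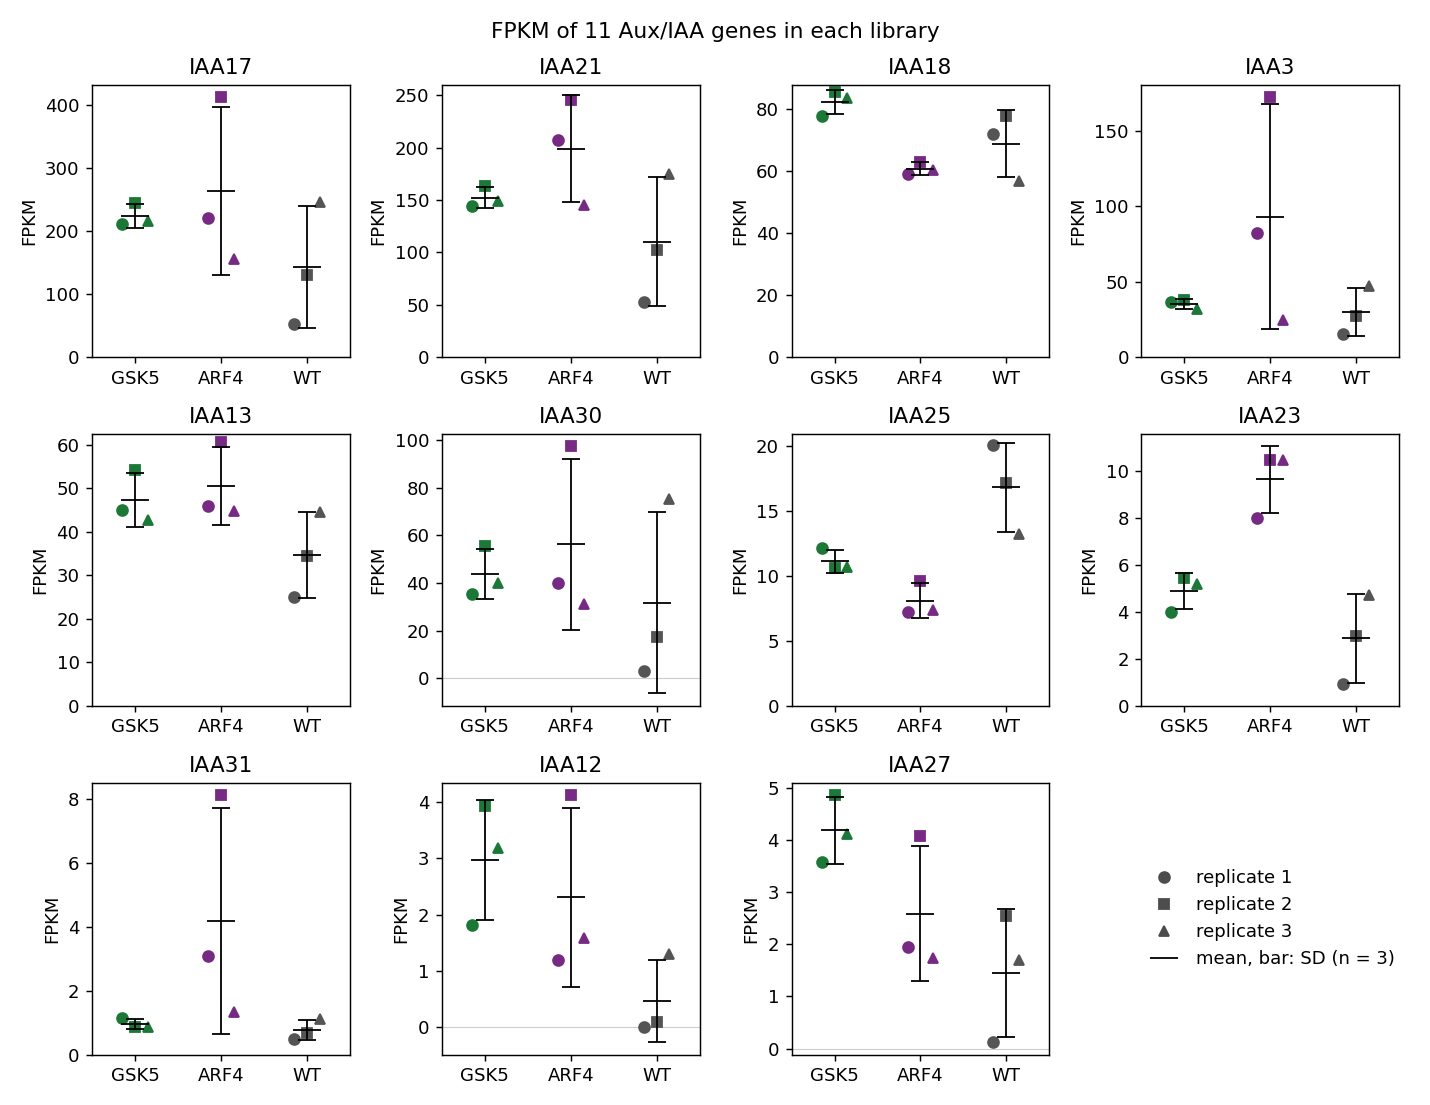
FPKM in each library of the 11 Aux/IAA genes described one by one, with groups across as GSK5-edited, ARF4-edited and WT, a marker for each replicate, and the mean with SD (n = 3). WT replicate 3 sits at the top of its group for IAA17, IAA21, IAA3, IAA13, IAA30, IAA23, IAA31 and IAA12, and ARF4 replicate 2 stands apart upward for IAA3, IAA30 and IAA31.

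Across the family, no tested member was called for GSK5 against WT. Of 24 members 18 had a log2 change above 0, with a median of 0.35, where 63.1% of all tested genes were above 0 and their median was 0.11. Limma called 2.15% of all genes in that comparison (adjusted p under 0.05), 1.45% higher and 0.701% lower. At an unadjusted p under 0.05 there were 3 members of 24 (12.5%), against 18.5% of all genes. The groups did not overlap for 5 of 24 members (20.8%), against 30.1% of all genes, and this share is below the background. Of these, 4 were higher and 1 lower, against 18.3% and 11.8% of all genes. Without WT replicate 1 the members' median was 0.18, against 0.06 for all genes. Without WT replicate 3, IAA12 and IAA25 were called and the share of all genes called was 11.6%.

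The members separate from WT in GSK5-edited grain with the largest changes were of low level. IAA12 (LOC_Os03g43410) had 1.82, 3.92 and 3.18 FPKM in GSK5-edited libraries and 0, 0.09 and 1.3 in WT. All 3 GSK5-edited libraries lay above all WT libraries, and ARF4-edited libraries, at 1.2, 4.12 and 1.59, did so but for replicate 1. The log2 change of 1.51 (SE 0.43) did not pass (limma adjusted p = 0.131). IAA27 (LOC_Os11g11410) had 3.59, 4.87 and 4.12 FPKM in GSK5-edited libraries and 0.12, 2.54 and 1.7 in WT, with 1.95, 4.08 and 1.74 in ARF4-edited libraries. Its log2 change of 1.23 (SE 0.42) did not pass either (limma adjusted p = 0.19). IAA24 was separate too, at 21.08 to 21.78 FPKM in GSK5-edited libraries and 12.15 to 20.31 in WT. The remaining separate members were IAA18, above, and IAA25, below.

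ARF4-edited grain held the single call of the family against WT. IAA25 (LOC_Os08g01780) had 7.23, 9.65 and 7.4 FPKM in ARF4-edited libraries and 20.11, 17.18 and 13.24 in WT. Every ARF4-edited library lay under every WT library. It fell to 8.09 ± 1.35 FPKM in ARF4-edited grain, against 16.8 ± 3.45 in WT (SD, n = 3 each), with a log2 change of -0.96 (SE 0.17, limma adjusted p = 0.0289). GSK5-edited libraries stood between, at 12.16, 10.59 and 10.69 FPKM, without overlap with either group, and IAA25 is the only member with 3 groups that are all separate. Against WT the change in GSK5-edited grain was -0.54 (SE 0.17, limma adjusted p = 0.164), and for GSK5 against ARF4 it was 0.43 (SE 0.17, limma adjusted p = 0.329). The call in ARF4-edited grain was lost in 8 of 20 alternatives, namely with GSK5-edited libraries kept out of the fit (limma adjusted p = 0.143), with the replicate number as a block (0.066), and leaving out WT replicate 1 (0.0678), WT replicate 2 (0.108), ARF4 replicate 1 (0.124) or any one GSK5-edited library (0.0612 to 0.0652). The log2 change stayed between -1.12 and -0.73 in the 20 alternatives. The SE rests on 1 spread shared by all groups, which the steadier GSK5-edited libraries lower. The SD of IAA25 on the log2(FPKM + 1) scale was 0.102 in GSK5-edited grain, 0.207 in ARF4-edited grain and 0.287 in WT. In the fit over ARF4-edited grain and WT alone, 0.351% of all genes were called, against 3.32% with all groups.

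Apart from IAA25, no member was called for ARF4 against WT. Of 24 members 15 had a log2 change above 0, with a median of 0.45, where 55.3% of all tested genes were above 0 and their median was 0.05. Without WT replicate 1 the members' median was 0.15. Without WT replicate 1 and ARF4 replicate 2 together it was -0.04, as was that of all genes. This pair was chosen after seeing the data, with WT replicate 1 often lowest and ARF4 replicate 2 often highest. Leaving it out therefore tends to lower the change. Without WT replicate 3 and ARF4 replicate 3 together the members' median was 0.86, against 0.13 for all genes. Within WT, replicate 3 was highest for 15 of 24 members, and within ARF4-edited grain replicate 3 was lowest for 17. Leaving out this second pair therefore tends to raise the change. Limma called 3.32% of all genes (1.3% higher and 2.02% lower). At an unadjusted p under 0.05 there were 7 of 24 members (29.2%), against 24.9% of all genes, and 4 of 24 (16.7%) did not overlap with WT, against 23.7% of all genes. Of these, 3 were higher and 1 lower, against 11.1% and 12.6% of all genes. These shares lie near those of all genes. The count depended on WT replicate 3: without it 8 members were called, IAA12, IAA13, IAA14, IAA21, IAA23 and IAA30 higher and IAA6 and IAA25 lower, with 15% of all genes called. Without ARF4 replicate 3 it was 4, IAA3, IAA4 and IAA31 higher and IAA25 lower, with 5.5% of all genes called. Without ARF4 replicate 2 it was 2, IAA15 and IAA25, both lower, with 8.15% of all genes called.

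IAA23 (LOC_Os06g39590), known from rice roots for keeping the quiescent centre, missed the threshold narrowly. It had 7.97, 10.47 and 10.44 FPKM in ARF4-edited libraries and 0.93, 2.98 and 4.72 in WT. The groups were far apart, at 9.63 ± 1.44 FPKM in ARF4-edited grain and 2.88 ± 1.9 in WT (SD, n = 3 each), and here ARF4 replicate 3 stood with replicate 2. The log2 change was 1.58 (SE 0.36, limma adjusted p = 0.0543). Adjusted p ran from 0.0142 to 0.196 in 20 alternatives and was under the threshold in 5 of them. GSK5-edited libraries had 3.99, 5.44 and 5.18 FPKM, all under ARF4-edited ones (log2 change of GSK5 against ARF4 -0.86, SE 0.36, limma adjusted p = 0.343) and overlapping WT.

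IAA31 (LOC_Os12g40900) had 1.15, 0.88 and 0.87 FPKM in GSK5-edited libraries, 3.08, 8.14 and 1.33 in ARF4-edited libraries and 0.49, 0.69 and 1.11 in WT. ARF4-edited libraries were above all others, replicate 3 only just. The log2 change was 1.34 for ARF4 against WT and -1.17 for GSK5 against ARF4 (SE 0.43 each), with limma adjusted p = 0.116 and 0.29.

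For GSK5 against ARF4 no member was called, where limma called 0.483% of all genes, 0.308% higher and 0.175% lower. At an unadjusted p under 0.05 there were 4 of 24 members (16.7%), namely IAA18 and IAA25 higher and IAA23 and IAA31 lower in GSK5-edited grain, against 13.8% of all genes. The same 4 members had groups that did not overlap, against 26.3% of all genes (18.3% higher and 8.02% lower). The median log2 change of the members was -0.02, with 12 above 0 and 12 below, and was 0.26 without ARF4 replicate 2. Because both contrasts with WT share the WT libraries, their values for a member are not independent of each other.

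**Figure D5:**
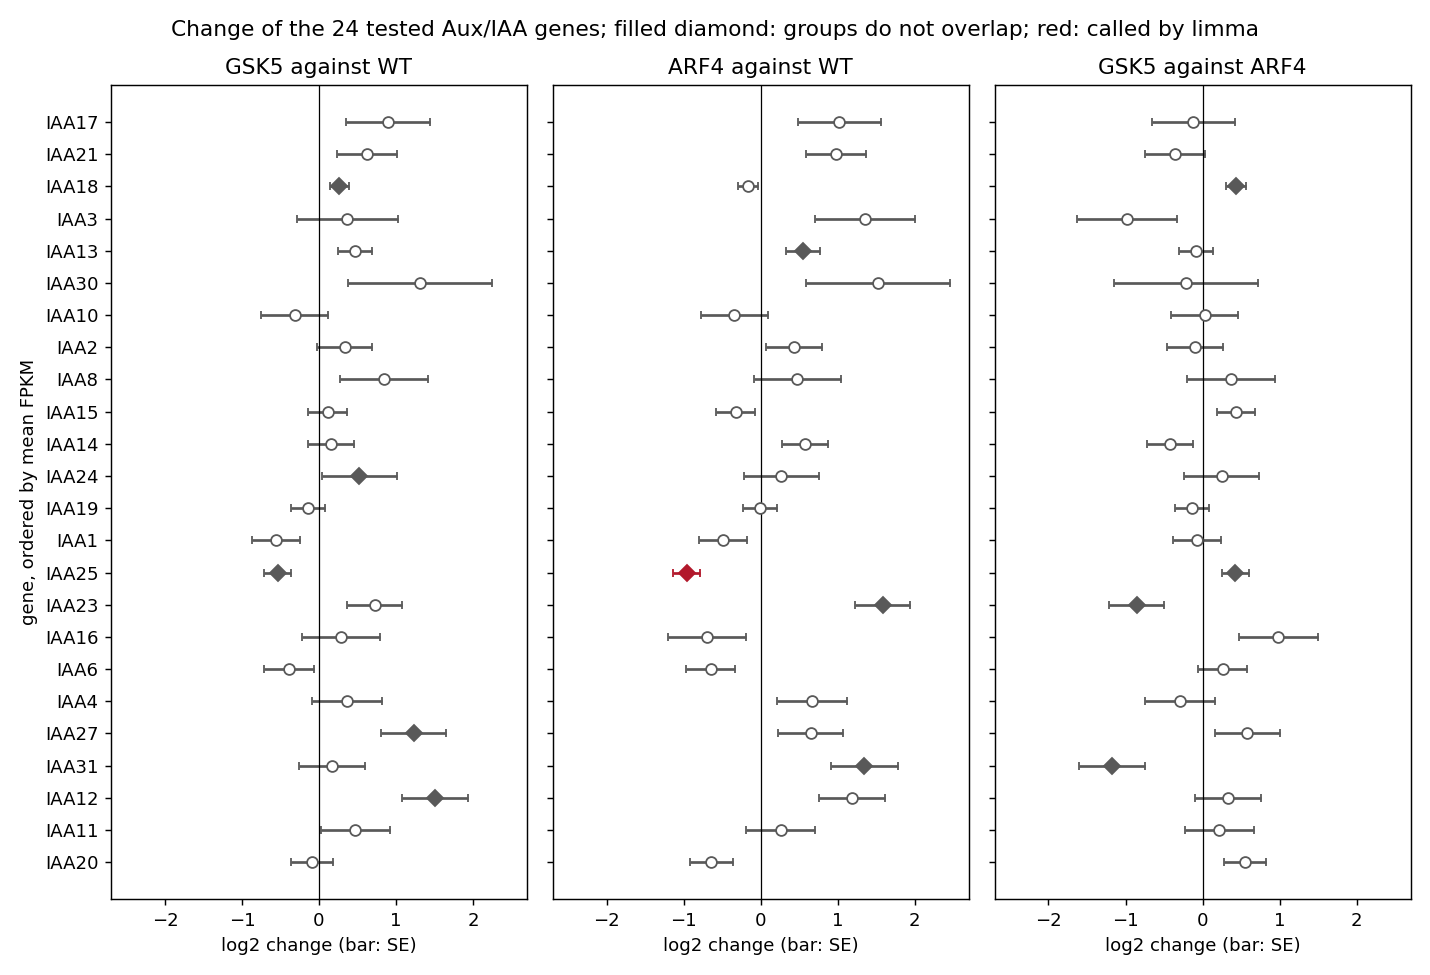
Log2 change with SE of the 24 tested Aux/IAA genes, ordered down by mean FPKM, in 3 panels, both edited groups against WT and then GSK5 against ARF4. Filled diamonds mark groups that do not overlap, and IAA25 in ARF4 against WT, at -0.96, is the single gene called (red).

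Some members have neighbouring loci. IAA30 and IAA31 have no RefSeq gene between them, yet IAA30 exceeded IAA31 in all 9 libraries, with averages of 43.9 and 1.97 FPKM. Both were highest in ARF4 replicate 2 and lowest in WT replicate 1. IAA30 averaged 43.6 ± 10.5 FPKM in GSK5-edited grain and 56.3 ± 36.0 in ARF4-edited grain, where IAA31 averaged 0.967 ± 0.159 and 4.18 ± 3.54 (SD, n = 3 each). IAA11 and IAA12 likewise have no RefSeq gene between them and were both low. IAA11, known in rice for a stabilising mutation that stops lateral root formation, had 1.1, 1.04 and 1.16 FPKM in GSK5-edited libraries, 0.62, 1.73 and 0.34 in ARF4-edited libraries and 0, 0.1 and 2.14 in WT. IAA12 was above IAA11 in 6 of the 9 libraries and listed at 0 with it in WT replicate 1. Of the triplet IAA27, IAA28 and IAA29, IAA28 was listed at 0 in every library, and IAA29 was listed at 0 in all but ARF4 replicate 3, at 0.51 FPKM.

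The 6 members that were not tested stayed low. IAA7 reached 3.61 FPKM in ARF4 replicate 2 and 1.07 in ARF4 replicate 1, and was under 1 in the other libraries. IAA22 lay between 0 and 0.59 FPKM, and IAA26 was listed at 0 except for 0.13 in GSK5 replicate 1. IAA9 (LOC_Os02g56120) is singled out after its values were seen. It had 0.77, 0.59 and 0.66 FPKM in GSK5-edited libraries, 0.12, 0.03 and 0.07 in ARF4-edited libraries and 0.17, 0.12 and 0.34 in WT. The GSK5-edited libraries were above all others, at levels under 1 FPKM. With no filter on low values, limma called IAA9 in GSK5 against WT (log2 change 0.47, SE 0.08, adjusted p = 0.0306). Limma also called it in GSK5 against ARF4 (0.64, SE 0.08, adjusted p = 0.0192). In these 2 comparisons 1.6% and 0.572% of 38465 genes were called. The log2(FPKM + 1) scale understates changes this low and also narrows the spread of such values. No other pseudocount was tried without the filter.

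Other tested members lay between these patterns. IAA1, which lowers auxin sensitivity when overexpressed in rice, averaged 10.4 ± 1.59 FPKM in GSK5-edited grain, 10.99 ± 2.31 in ARF4-edited grain and 16.9 ± 8.65 in WT (SD, n = 3 each). The WT mean was lifted by replicate 1 at 26.77 FPKM, the highest of all libraries. IAA6, linked to drought tolerance and tiller outgrowth in rice, averaged 3.51 ± 0.165 FPKM in GSK5-edited grain, 2.86 ± 0.991 in ARF4-edited grain and 5.25 ± 2.45 in WT. IAA10, a target of a rice dwarf virus protein, averaged 36.0 ± 2.5 FPKM in GSK5-edited grain, 41.0 ± 27.0 in ARF4-edited grain and 46.1 ± 12.0 in WT. IAA8 spread most among WT libraries, at 7.29, 23.8 and 50.25 FPKM, around the 36.74 to 41.3 of GSK5-edited and 21.02 to 39.06 of ARF4-edited libraries. IAA15 stood at 31.56 to 33.63 FPKM in GSK5-edited libraries, 18.25 to 38.73 in ARF4-edited libraries and 27.48 to 33.32 in WT. IAA15 was lower in ARF4 replicates 1 and 3 than in any other library, and high in ARF4 replicate 2. Groups overlapped in all 3 comparisons for IAA2, IAA4, IAA14, IAA16, IAA19 and IAA20, as for IAA1, IAA6, IAA8, IAA10, IAA11 and IAA15.

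Few genes of the partners of Aux/IAA proteins were called. Limma called 2.15% of all genes for GSK5 against WT, 3.32% for ARF4 against WT and 0.483% for GSK5 against ARF4. At such shares, lists this short can hold few or no calls whatever the partners do. Of 25 auxin response factor genes, 23 were tested. Limma called none for GSK5 against WT, with 1 at an unadjusted p under 0.05 (4.35%, against 18.5% of all genes), and none for GSK5 against ARF4, likewise with 1 (against 13.8%). For ARF4 against WT 1 fell, which was ARF4 itself (log2 change -0.71, SE 0.14, limma adjusted p = 0.0388), with 5 at an unadjusted p under 0.05 (21.7%, against 24.9%). The call of ARF4 was lost in 12 of 20 alternatives, among them median-of-ratios scaling (limma adjusted p = 0.0573) and leaving out WT replicates 1 or 2, ARF4 replicates 1 or 3 or any one GSK5-edited library. Its log2 change lay between -0.86 and -0.63 and its adjusted p between 0.00817 and 0.172 in these 20. Log2 changes of the 23 were above 0 for 20 in either contrast with WT and for 6 for GSK5 against ARF4, where 63.1%, 55.3% and 57% of all genes were above 0. Their medians were 0.29 for GSK5 against WT, 0.52 for ARF4 against WT and -0.18 for GSK5 against ARF4, against 0.11, 0.05 and 0.05 for all genes. Without WT replicate 1 the medians against WT were 0.16 for GSK5 and 0.28 for ARF4, and without ARF4 replicate 2 that for GSK5 against ARF4 was 0.07. Without both, that for ARF4 against WT was 0.05. The 5 loci listed as F-box auxin receptors and the 3 listed as TOPLESS-like co-repressors, whose names the reference table holds for 2 co-repressors and no receptor, had no limma call in any comparison. At an unadjusted p under 0.05 there was 1 receptor locus of 5 (20%) in each contrast with WT and 0 for GSK5 against ARF4, and 0 co-repressor loci in any. Receptor medians were 0.14 for GSK5 against WT and 0.17 for ARF4 against WT, and co-repressor medians -0.07 in both. Of 13 listed genes of the GH3 family, 9 were tested. Some GH3 products conjugate auxin to amino acids and some GH3 genes are induced by auxin. The list was not split by what its products conjugate. Limma called none, with 1 at an unadjusted p under 0.05 for GSK5 against WT (11.1%), 2 for ARF4 against WT (22.2%) and 4 for GSK5 against ARF4 (44.4%), against 18.5%, 24.9% and 13.8% of all genes. GH3-5, chosen after its values were seen, had 29.94, 32.29 and 33.51 FPKM in GSK5-edited libraries, 10.15, 15.08 and 6.34 in ARF4-edited libraries and 4.03, 8.85 and 22.06 in WT. GSK5-edited libraries were highest (log2 change against WT 1.65, SE 0.51, limma adjusted p = 0.154). GH3-2, the most abundant of the list, had 10.22, 7.17 and 10.75 FPKM in ARF4-edited libraries and 70.49, 19.65 and 20.9 in WT (log2 change -1.64, SE 0.44, limma adjusted p = 0.078). All ARF4-edited libraries lay under all WT libraries for GH3-2, with WT replicate 1 far above the rest, and neither gene passed.

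The gene most like IAA17 among auxin signalling genes was an auxin response factor. Over the 9 libraries, ARF3 had a Pearson r of 0.995 with IAA17 on the log2(FPKM + 1) scale, second among 23384 genes, after LOC_Os02g49310 at 0.997. The other 3 of the 5 closest genes had an r of 0.993. The closest family members were IAA30 (r = 0.98, rank 49) and IAA21 (r = 0.966, rank 198). These values describe the libraries and carry no test, since all genes share the same 9 libraries. WT replicate 1 was lowest and ARF4 replicate 2 highest for IAA17, IAA21, IAA30 and ARF3 alike. ARF3 had 16.64, 19.59 and 18.63 FPKM in GSK5-edited libraries, 16.42, 30.36 and 13.74 in ARF4-edited libraries and 5.49, 11.65 and 20.6 in WT.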

How the data were processed

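The authors deposited 1 table of FPKM values, rounded to 2 decimals, for 55986 rice gene models in 9 libraries. The submitters' processing notes name Bowtie 0.12.2 and mm8, a build of the mouse genome. Which rice build, annotation and quantifier were used is not given in the sources used here. Trizol RNA went into TruSeq libraries, per the labels' protocols. Close copies within the family may share fragments, depending on the counting. Relative depth came from the steps of values from 0.1 to 0.5 FPKM over 36 pairs of libraries.

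Genes with at least 1 FPKM in at least 3 libraries (23385) were fitted as log2(FPKM + 1) in limma 3.58.1 (R 4.3.3), with a mean-variance trend, 1 mean per group and 1 shared spread. Fold changes of low genes are understated on this scale. The Benjamini-Hochberg adjustment ran over all tested genes, and a call is an adjusted p under 0.05. The fit was also run on simulated data with independent noise for each gene and library. Those data held no shifts of whole libraries, so that run does not bear on such shifts. Tables came from pandas 2.3.3 and numpy 2.4.6 in Python 3.11.15, and plots from matplotlib 3.10.9. The members and lists were chosen with earlier results of these data known. Values of every library are given for members called, among the 6 most abundant, separate between groups with a log2 change of at least 1, or among the 3 widest ranges (11 in all). Loci of the other lists were written from memory. Alternatives covered the pseudocount, the filter, scaling, trend, block, groups fitted and libraries left out. Protein and promoter sequences were not used here.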

Additional observations from a re-analysis of the deposited data

How the results depend on the processing

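Counts of Aux/IAA members called moved mainly with the libraries kept. Leaving out 1 library at a time gave 0 to 2 members for GSK5 against WT, 0 to 8 for ARF4 against WT and 0 to 1 for GSK5 against ARF4, and 0 to 3, 0 to 6 and 0 to 1 genes of the pathway lists. Without WT replicate 3 and ARF4 replicate 3 together, 5, 14 and 1 members and 4, 19 and 3 pathway genes were called, with 15.3%, 21.7% and 3.9% of all genes. Leaving out this pair tends to raise the members' change for ARF4 against WT. Without WT replicate 1 and ARF4 replicate 2 together, an alternative chosen after seeing the data, 0, 3 and 1 members and 0, 2 and 1 pathway genes were called, with 2.2%, 8.55% and 3.87% of all genes. For ARF4 against WT, 2 members were called with a pseudocount of 5 and 2 under quantile normalization (with 2 pathway genes), 0 members and 0 pathway genes in the fit over only the 2 groups and 0 of each with the replicate block, and 0 pathway genes with no filter. With no filter 1 member, IAA9, was called for GSK5 against WT and 1 for GSK5 against ARF4, with 1.6% and 0.572% of all genes. Median-of-ratios scaling kept the pathway count for ARF4 against WT at 1, but the gene was GH3-11 in place of ARF4. The cause was not tested. The labels do not say whether replicate numbers pair libraries. Deviations of same-numbered libraries correlated at -0.349 to 0.083, and those of libraries with different numbers at -0.32 to 0.351. These values show no sign of pairing but cannot exclude it. The block called 239, 219 and 30 of all genes, against 502, 776 and 113 without it.

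Of 651 alternative values for the 11 members given in full, 609 kept direction and side of the threshold, 8 lost the call (all IAA25), 23 gained one and 11 changed sign. Over all the settings that left out libraries, GSK5 against ARF4 ran from -0.19 to 0.054 for IAA13, from -0.44 to 0.26 for IAA17 and from -0.54 to 0.27 for IAA30, with the positive values without ARF4 replicate 2. GSK5 against WT ran from -0.0195 to 0.76 for IAA3, below 0 without WT replicate 1. ARF4 against WT ran from -0.12 to 0.99 for IAA27 and from -0.0312 to 2.90 for IAA30, below 0 without WT replicate 1 and ARF4 replicate 2 together. Under quantile normalization GSK5 against WT turned to -0.17 for IAA31. No value with a changed sign was called. The median of all genes for GSK5 against WT was 0.114 as deposited and -0.006 under quantile normalization, where the members' median was 0.249.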
